A study of Mus musculus with 20 samples.

Results

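This section describes how the middle colon of healthy mice given a probiotic mixture differed in gene expression from that of healthy mice given saline only. The arrays were chosen by their titles: 4 labelled healthy and probiotic were set against 4 labelled healthy with no treatment, together 8 of the 20 arrays of the series. Every mouse was a female C57BL/6JOlaHsd of about 11 weeks, healthy here meaning that it drank no dextran sulfate sodium (DSS), the detergent-like polymer given to other mice at 3% for 5 days to inflame the colon. The probiotic mice received the bacterial strains L930BB and IM386, known from outside the labels as a lactobacillus and a bifidobacterium, through a stomach tube in 100 µl of saline, and the untreated mice are the saline group of the design text. Not given in the sources used here are how often the healthy mice were dosed, when in the day tissue was taken and which mice shared a cage of 5. The middle colon was taken as whole tissue, so a value averages epithelium, muscle, vessels, nerves and immune cells, and fewer cells of a type and less RNA per cell cannot be told apart.

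The colon wall is lined by absorptive colonocytes and mucus-secreting goblet cells that face the bacteria of the gut. Beneath them lies a stroma of fibroblasts, blood and lymphatic capillaries and resident macrophages, which samples what crosses the epithelium. Lactobacilli and bifidobacteria ferment sugars to lactate and acetate, and are known for effects on barrier genes and on mucosal immune cells that depend on strain and host.

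The colonocyte genes Car1, Aqp8, Slc26a3 and Krt20, the mucin Muc2, the epithelial Epcam, Cdh1 and Vil1 and the hindgut homeobox gene Hoxd13 exceeded the level used as a filter for dim genes, a log2 value of 5.30, on all 8 arrays, and the pancreatic Ins2 exceeded it on none. The liver gene Alb (6.28 to 7.61) and the small intestinal Apoa4 (5.99 to 6.35) also exceeded it on all 8 arrays. The 8 arrays had medians of 6.24 to 6.29 (log2). Correlations across genes ran from 0.989 to 0.994 among the saline arrays and from 0.992 to 0.993 among the probiotic arrays. The median SD of a gene over 4 mice was 0.120 in the saline group and 0.107 in the probiotic group. One array of each group stood apart: saline mouse 2 and probiotic mouse 4 had low values of long transcripts that encode nuclear and other large proteins. The mean of 8 such genes, among them the chromatin remodeller Atrx and the cohesin loader Nipbl, was 8.50 in saline mouse 2 and 8.89 in probiotic mouse 4, against 9.47 to 9.57 in the other 6 mice. Counts and list medians are therefore also given without them.

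No gene passed the test between probiotic and saline at a Benjamini-Hochberg adjusted p of 0.05. Of 16739 genes tested with limma, 0 were called (0% higher and 0% lower), and 1511 had an unadjusted p under 0.05, 736 of them higher under the probiotic (4.4%) and 775 lower (4.63%). The smallest adjusted p was 0.206, shared by 5 genes. Without saline mouse 2 and probiotic mouse 4, 0 genes were called and 1004 had an unadjusted p under 0.05. Differences are given below as log2 probiotic minus log2 saline, so that 1 is a doubling, with the standard error of the fit. Their median size was 0.079, and 8 genes differed by 1 or more in either direction. Larger differences lay mostly upward: 109 genes were higher by at least 0.5 and 24 lower by as much. The arrays of the groups did not overlap for 686 genes that were higher under the probiotic (4.1%) and 498 that were lower (2.98%).

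Among genes whose groups did not overlap, 12 with the smallest p were taken in each direction. Immunoglobulin segments and predicted genes were left out of this choice, and 1 kappa segment of smaller p than Cyp11a1, described further on, was passed over for that reason. Traf4 stood first of those higher under the probiotic. Traf4 encodes an adaptor of the tumour necrosis factor receptor associated family. Its log2 values were 8.22, 8.16, 7.995 and 8.01 in saline mice 2, 4, 6 and 7, and 8.58, 8.44, 8.62 and 8.46 in probiotic mice 4, 5, 6 and 7, a difference of 0.43 ± 0.08 (adjusted p = 0.206). The highest saline mouse lay below the lowest probiotic mouse. Cyp11a1, the mitochondrial enzyme that starts steroid synthesis by cutting the side chain of cholesterol, had values of 5.95, 5.88, 6.39 and 6.41 in the saline mice and 6.73, 6.99, 6.82 and 6.83 in the probiotic mice, in the same order. It differed by 0.68 ± 0.13 (adjusted p = 0.206), with saline mice 2 and 4 lower than saline mice 6 and 7 and all 4 probiotic mice above them.

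Several genes of this group are known from vessels or mesenchyme. Cd300lg, a glycoprotein of capillary endothelium, differed by 0.47 ± 0.10. Wnt2b, a Wnt ligand made by stromal cells beneath the crypts, had values of 6.89, 7.13, 7.31 and 7.38 in saline mice and 7.67, 7.55, 7.66 and 7.80 in probiotic mice, a difference of 0.49 ± 0.11. All 4 probiotic mice were above the highest saline mouse. Gpm6a, a membrane glycoprotein of neurons and mesothelium, had the largest difference of these 12, 0.76 ± 0.17, with 6.93, 6.40, 6.54 and 6.21 in the saline mice and 7.38, 7.03, 7.27 and 7.43 in the probiotic mice. Saline mouse 2 was the highest of its group and stayed below every probiotic mouse. The others were the nuclear protein Midn at 0.45 ± 0.10, the scaffold of ion exchangers Slc9a3r2 at 0.48 ± 0.11, the membrane protein Lrrn4cl at 0.51 ± 0.12, the zinc finger gene Zfp46 at 0.29 ± 0.07, the cytoskeletal Nav1 at 0.31 ± 0.07, the Gla-domain protein Prrg1 at 0.50 ± 0.12 and polycystin 1, Pkd1, at 0.27 ± 0.06. Their adjusted p was 0.301 each, as it was for Cd300lg, Wnt2b and Gpm6a.

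The 12 genes chosen likewise that were lower under the probiotic included several of mitochondria. Tmem256, a small membrane protein, had log2 values of 7.00, 6.85, 6.78 and 6.88 in saline mice and 6.53, 6.45, 6.24 and 6.55 in probiotic mice, a difference of -0.44 ± 0.08 (adjusted p = 0.206). Probiotic mouse 6 was the lowest, and no probiotic mouse reached a saline one. Hint2, a mitochondrial hydrolase of the histidine triad family, had 6.40, 6.10, 6.28 and 6.31 in saline mice and 5.87, 5.85, 5.95 and 5.70 in probiotic mice, a difference of -0.43 ± 0.08 (adjusted p = 0.206). Here too the groups did not overlap, probiotic mouse 7 being lowest. Slc25a26, which carries S-adenosylmethionine into mitochondria, differed by -0.37 ± 0.09, and Ssr4, a subunit of the complex beside the protein translocon, by -0.31 ± 0.08. Nccrp1 differed by -0.51 ± 0.12, the largest size of the 12, Clec2d, a lectin-like ligand of natural killer cell receptors, by -0.38 ± 0.09, and Hacd1, a dehydratase of very long fatty acid synthesis, by -0.32 ± 0.07. For Trappc6a, a vesicle tethering subunit, the difference was -0.32 ± 0.08, for Tfap4, a transcription factor, -0.33 ± 0.08, for Mien1 -0.26 ± 0.06, for Anapc13, a subunit of the anaphase promoting complex, -0.27 ± 0.07, and for Xrcc6, the DNA end-binding Ku70 protein, -0.24 ± 0.06. The adjusted p of these 10 was 0.301 in each case.

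**Figure D1:**
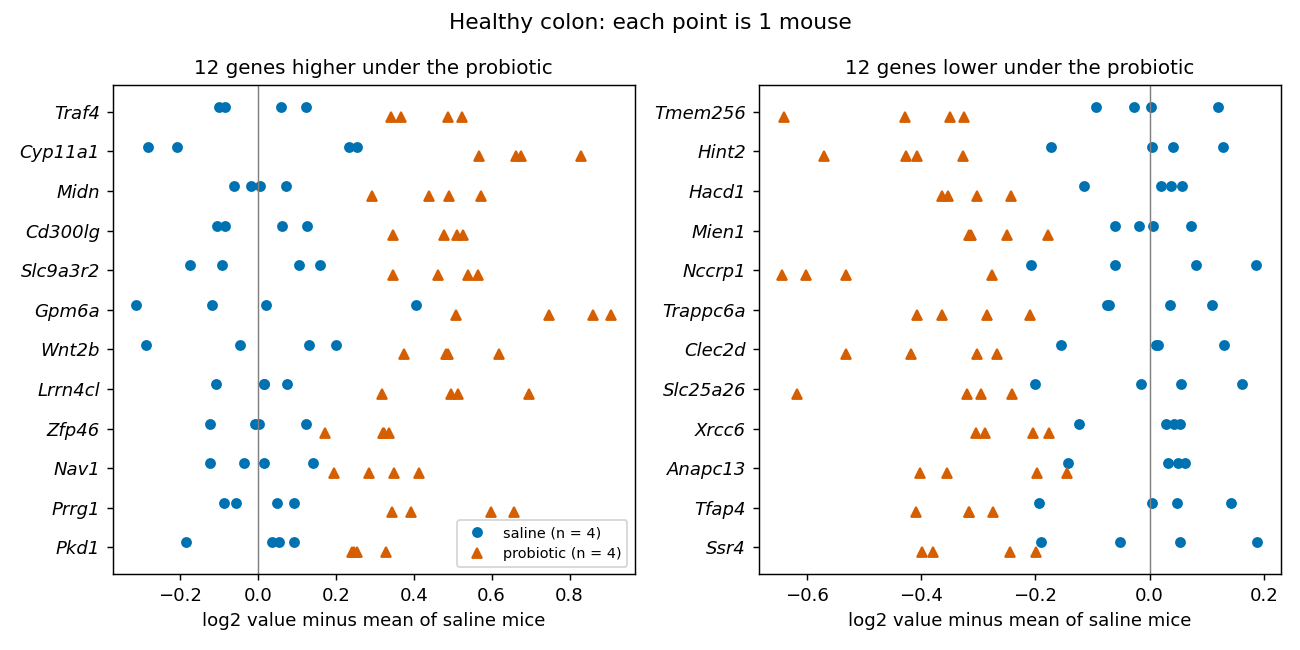
Log2 values of the 12 genes without overlap and with the smallest p, immunoglobulin segments and predicted genes left out, that were higher (left) and lower (right) under the probiotic, each minus the mean of its 4 saline mice on the x axis; circles are saline mice and triangles probiotic mice. The groups do not overlap for any gene shown, since the choice of genes asked for that, and the saline mice of Cyp11a1 and Gpm6a are the most widely spread of the left panel.

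A fit of the 8 healthy arrays alone, which takes the spread between mice from these groups only, called 19 genes at an adjusted p under 0.05, all of them higher under the probiotic (0.114% of genes tested). Lyve1, the hyaluronan receptor of lymphatic endothelium, had log2 values of 9.17, 9.44, 9.57 and 9.52 in saline mice and 10.08, 10.18, 10.26 and 10.27 in probiotic mice, a difference of 0.77 ± 0.23. Its adjusted p was 0.031 in this fit and 0.371 in the fit of all 20 arrays. The standard errors given for the 19 genes are those of the fit of all 20 arrays. For Lyve1 the standard error in the fit of the 8 arrays was 0.09. Saline mouse 2 was lowest, and every probiotic mouse was above every saline mouse. Dcn, the collagen-binding proteoglycan decorin, had 11.40, 11.57, 11.65 and 11.65 in saline mice against 12.17, 12.18, 12.09 and 12.14 in probiotic mice (difference 0.58 ± 0.18; adjusted p 0.031 and 0.391). The probiotic SD was 0.04. A wide gap relative to the spread of these mice is what the choice of these genes asked for. Fcer1g, the signalling chain shared by Fc receptors of myeloid cells and mast cells, had 8.34, 8.38, 8.20 and 8.31 in saline mice and 8.81, 8.76, 8.85 and 8.91 in probiotic mice, and differed by 0.53 ± 0.27 (adjusted p 0.031 and 0.593).

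Other stromal genes of the 19 were Vim, the intermediate filament vimentin, at 0.50 ± 0.16, the microfibril protein Mfap5 at 0.57 ± 0.20, the matrix protein Ecm2 at 0.71 ± 0.18, the mesenchymal transcription factor Osr1 at 0.56 ± 0.15, the oncostatin M receptor Osmr at 0.54 ± 0.21, Fhl5 at 0.73 ± 0.22, Capn6 at 0.44 ± 0.15, the adhesion receptor Adgrd1 at 0.69 ± 0.21 and the lipocalin Apod at 0.77 ± 0.26. Vcam1, which binds leukocyte integrins, differed by 0.58 ± 0.25, and Ms4a4a, a membrane protein of macrophages, by 0.74 ± 0.26. Enpp3, an ectonucleotidase, differed by 0.52 ± 0.15. From the complement and plasma protein side came the C1 inhibitor Serping1 at 0.52 ± 0.20, the terminal component C7 at 0.54 ± 0.25 and ceruloplasmin, Cp, at 0.76 ± 0.27. The remaining one was an immunoglobulin kappa variable segment, singled out after its values were seen. Its log2 values were 7.05, 7.01, 7.44 and 8.22 in saline mice and 10.24, 11.38, 10.60 and 9.87 in probiotic mice, a difference of 3.09 ± 0.60. All 4 probiotic mice were above the highest saline mouse, number 7. Of the 10 immunoglobulin segments tested, 8 lay above 0 with a median of 0.32, this 1 not overlapping, and their median pooled SD within groups was 0.576, against 0.121 over all genes. The 19 calls depended on single arrays. Leaving out saline mouse 2 gave 10 called genes, 8 of them among the 19, leaving out saline mouse 7, probiotic mouse 5 or probiotic mouse 7 gave 1 each, and leaving out saline mouse 4, saline mouse 6, probiotic mouse 4 or probiotic mouse 6 gave 0, as did leaving out saline mouse 2 and probiotic mouse 4 together.

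Genes of blood vessels were higher as a group in values, with none called. Of 24 endothelial markers, all of them above the dim level, 23 had a difference above 0 and 1 below, where 47.4% of all genes lay above 0. Not overlapping and higher were 12 of the 24, against 4.1% of all genes, and 0 were not overlapping and lower. The median difference was 0.27, against −0.0075 over all genes tested. The mean of the 24 markers was 7.00, 7.23, 7.24 and 7.23 in saline mice 2, 4, 6 and 7, and 7.46, 7.40, 7.47 and 7.48 in probiotic mice 4, 5, 6 and 7. Saline mouse 2 was low for these genes. Without it 21 of 24 were above 0, 12 were higher without overlap (6.05% of all genes) and the median was 0.21. Without saline mouse 2 and probiotic mouse 4 the median was 0.22.

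Calcrl, the receptor subunit for adrenomedullin and the calcitonin gene-related peptide, had 7.54, 8.47, 8.44 and 8.44 in saline mice and 8.82, 8.83, 8.82 and 8.88 in probiotic mice, a difference of 0.62 ± 0.20 (adjusted p = 0.41). Saline mouse 2 lay far below the other 3 saline mice, which in turn lay below all probiotic mice. Tek, the receptor tyrosine kinase for angiopoietins, had 6.52, 7.11, 6.97 and 6.99 in saline mice and 7.43, 7.39, 7.41 and 7.62 in probiotic mice, and differed by 0.56 ± 0.14 (adjusted p = 0.301). Its partner phosphatase in endothelium, Ptprb, had 7.29, 7.77, 7.73 and 7.81 against 8.28, 8.13, 8.30 and 8.14, a difference of 0.57 ± 0.14 (adjusted p = 0.301). In both genes saline mouse 2 was lowest and the groups did not overlap. Cdh5, the cadherin of endothelial junctions, differed by 0.54 ± 0.20, Cd34, a sialomucin of capillaries and stromal cells, by 0.52 ± 0.15 and the adhesion molecule Esam by 0.27 ± 0.09. Egfl7, Robo4 and Vwf were nearest to 0 and overlapped between groups.

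Lymphatic endothelial markers showed the highest median of the 38 lists considered, 0.38 over 6 tested members, 5 above 0 and 4 higher without overlap, against 47.4% and 4.1% of all genes. Prox1, the transcription factor that fixes lymphatic identity, had 6.14, 6.18, 6.26 and 5.99 in saline mice and 6.55, 6.57, 6.43 and 6.55 in probiotic mice, a difference of 0.38 ± 0.14 (adjusted p = 0.425). The lowest probiotic mouse, number 6, was above the highest saline mouse, also number 6. Flt4, the receptor for vascular endothelial growth factor C, differed by 0.38 ± 0.15, and Reln, an extracellular glycoprotein made by lymphatic vessels, by 0.48 ± 0.15. Mmrn1 was below the dim level on all 8 arrays. It is nonetheless among the 6 tested members, having passed the filter through arrays of colitis mice, and the list median and counts include it. C57BL/6JOlaHsd mice are known to carry a deletion that spans this gene.

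Ligands and regulators of vessel growth were mixed. Of 16 tested, 10 lay above 0 (47.4% of all genes), 4 were higher without overlap (4.1%) and the median was 0.07. Epas1, the hypoxia-inducible factor of endothelium, differed by 0.34 ± 0.10, the receptor Notch1 by 0.27 ± 0.07, the Tek ligand Angpt1 by 0.35 ± 0.12 and the growth factor Vegfd by 0.31 ± 0.16. Vegfa and Vegfc overlapped between groups. Pericyte and mural markers had a median of 0.05 over 9 genes, with 2 higher (4.1% of all genes) and 1 lower (2.98%) without overlap. Rgs5, a G-protein regulator that marks pericytes, had 10.41, 10.72, 10.73 and 10.76 in saline mice and 11.58, 10.97, 11.01 and 11.02 in probiotic mice, and differed by 0.49 ± 0.14. Probiotic mouse 4 was the highest, and the other 3 probiotic mice lay just above the saline group. Smooth muscle and pacemaker genes had a median of −0.05, with 4 of 16 above 0.

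Matrix and fibroblast genes had a median of 0.15 over 19 tested, 15 above 0 and 6 higher without overlap, against the same 47.4% and 4.1%. The proteoglycan Lum differed by 0.44 ± 0.18, the basement membrane protein Fbln1 by 0.48 ± 0.12 and the collagen cross-linking enzyme Lox by 0.50 ± 0.29. The main fibrillar collagens Col1a1, Col1a2 and Col3a1 overlapped between groups. Of 22 colonocyte genes, 16 lay below 0 (52.6% of all genes). Epcam, the epithelial adhesion molecule, differed by -0.07 ± 0.06 with no overlap. Of other epithelial markers, Cdh1 at -0.02 ± 0.08, Vil1 at -0.08 ± 0.07 and Muc2 at 0.03 ± 0.07 overlapped between groups. Lower without overlap were the colonocyte gene Aqp8 at -0.31 ± 0.20 and the goblet cell gene Agr2 at -0.26 ± 0.09. The part of tissue composition in the stromal and vascular differences was not tested.

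**Figure D2:**
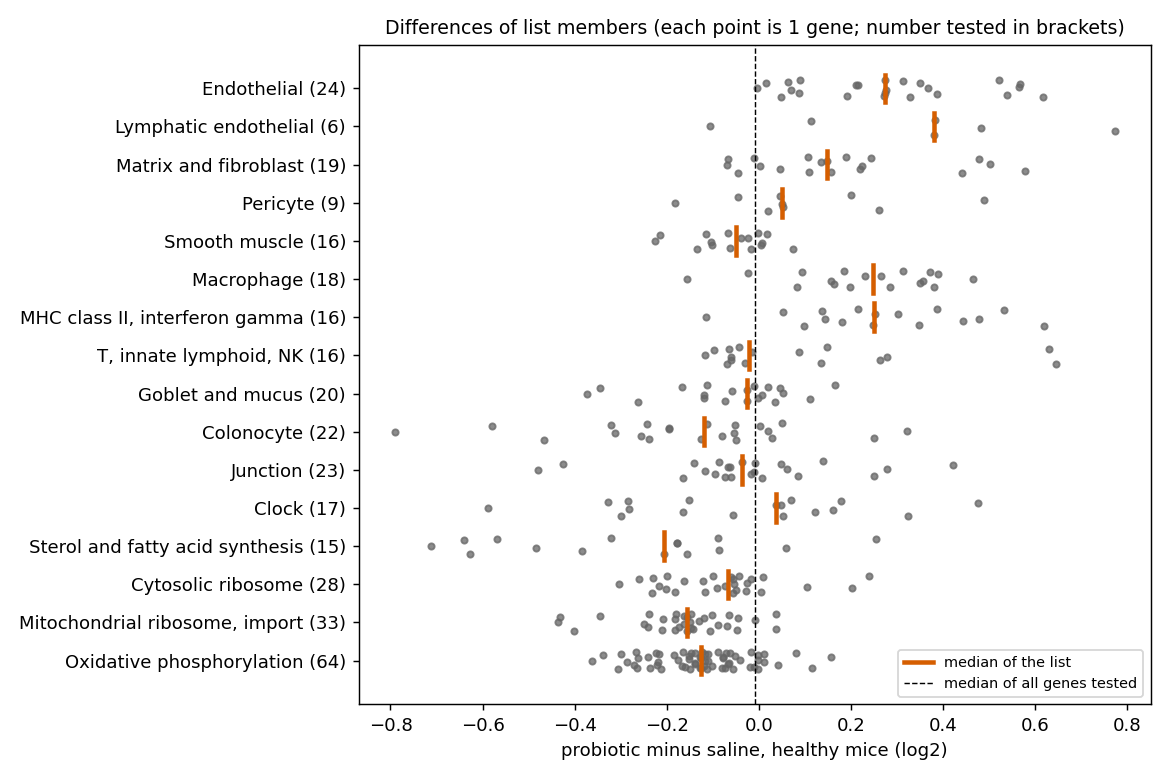
Probiotic minus saline difference (log2, x axis) of every tested member of 16 gene lists in healthy mice, 1 point per gene; orange bars are list medians and the dashed line the median of all genes tested. Endothelial, lymphatic, macrophage and MHC class II lists have medians from 0.25 to 0.38, and the oxidative phosphorylation and mitochondrial ribosome lists medians of −0.12 and −0.16.

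**Figure D3:**
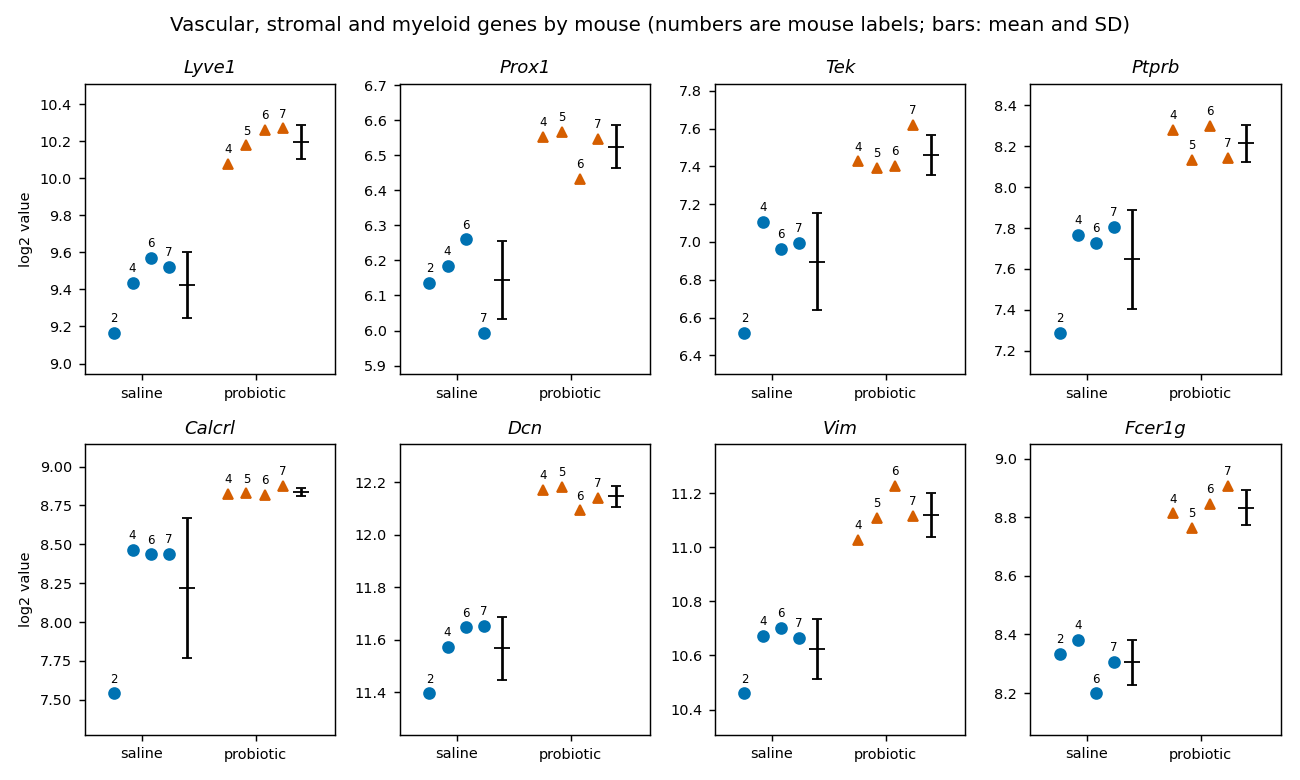
Log2 values (y axis) of 8 vascular, stromal and myeloid genes in each mouse, with the mouse number beside each point; circles are saline mice, triangles probiotic mice, and black bars give mean and SD of 4 mice. No gene shown overlaps between groups, and saline mouse 2 is the lowest saline mouse for Lyve1, Tek, Ptprb, Calcrl, Dcn and Vim.

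The same genes were read in mice with colitis, whose arrays are separate from those of the healthy mice. There 4 mice given DSS and the probiotic were set against 4 given DSS and saline, and 356 genes were called higher (2.13%) and 112 lower (0.669%). All 19 genes called in the fit of the healthy arrays had a difference above 0 in colitis, where 44.5% of all genes did, and 9 of the 19 were called higher there, with a median colitis difference of 0.72. The values came close to those of healthy mice for Lyve1 (0.80 ± 0.23; adjusted p = 0.0642), Ecm2 (0.70 ± 0.18; adjusted p = 0.0392) and Osr1 (0.72 ± 0.15; adjusted p = 0.0155). Other members lay further from their healthy values. Fcer1g (1.10 ± 0.27) and Serping1 (0.95 ± 0.20) were larger in colitis, and C7 (0.14 ± 0.25) and the kappa segment (1.87 ± 0.60) smaller. The test of the difference between responses called 0 of the 19. Endothelial markers had a colitis median of 0.41 with 23 of 24 above 0 and 6 called, and lymphatic markers a median of 0.58 with 3 of 6 called. The lists' own differences between colitis and healthy responses had no called member. By contrast, of the 12 genes chosen by smallest p, immunoglobulin segments left out, that were higher in healthy mice, 10 lay above 0 in colitis and 1 was called there, Wnt2b (0.48 ± 0.11; adjusted p = 0.0304). Traf4 differed by -0.08 ± 0.08 in colitis and Cyp11a1 by -0.02 ± 0.13. Of the 12 lower genes, 8 lay at or below 0 in colitis and 1 was called lower, Hacd1 (-0.37 ± 0.07; adjusted p = 0.00899).

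**Figure D4:**
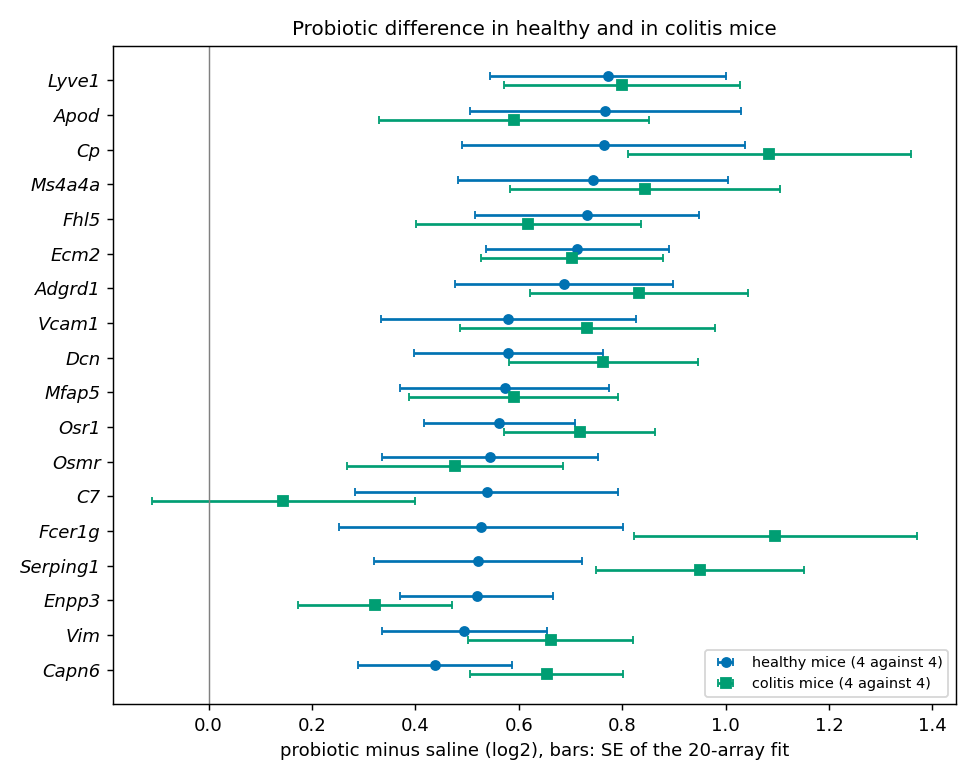
Probiotic minus saline difference (log2, x axis) with its standard error for the 18 named genes called in the fit of the 8 healthy arrays; circles are healthy mice and squares colitis mice, 4 against 4 each. Every square lies above 0, the lowest being C7 at 0.14. C7 was below the dim level in all 4 healthy saline mice.

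Myeloid and antigen presentation genes were higher in values. Of 18 macrophage markers tested, 16 lay above 0 (all genes 47.4%), 5 were higher without overlap (4.1%) and the median was 0.25. Csf1r, the growth factor receptor of macrophages, had 7.93, 7.98, 8.11 and 8.02 in saline mice and 8.16, 8.49, 8.32 and 8.55 in probiotic mice, a difference of 0.37 ± 0.20 (adjusted p = 0.6). Probiotic mice 5 and 7 were highest and the groups did not overlap. Adgre1, a surface antigen of macrophages, differed by 0.38 ± 0.16, the complement subunit C1qb by 0.39 ± 0.22, and the integrin Itgam by 0.47 ± 0.37. Cx3cr1, the fractalkine receptor of resident gut macrophages, differed by 0.18 ± 0.08 with overlap. MHC class II and interferon gamma genes had a median of 0.25 over 16 tested, 15 above 0 and 4 without overlap. H2-Ab1, a class II chain, had 10.64, 10.48, 10.51 and 10.49 in saline mice and 10.93, 10.93, 10.92 and 11.13 in probiotic mice, a difference of 0.44 ± 0.19 (adjusted p = 0.498). All probiotic mice were above all saline mice, and mouse 7 was the highest. H2-Aa differed by 0.35 ± 0.19 and the guanylate-binding protein Gbp5 by 0.62 ± 0.45. In colitis the macrophage median was 0.85 with 11 of 18 called higher (2.13% of all genes), and the test of the difference between responses had an unadjusted p under 0.05 for 9 of the 18 (8.64% of all genes), of which 0 were called. T cell and innate lymphoid markers had a median of −0.02 over 16, with 2 higher without overlap, the coreceptor Cd4 at 0.63 ± 0.23 and the interleukin 7 receptor Il7r at 0.65 ± 0.29. B and plasma cell markers had a median of 0.01, and type I interferon genes 0.07, with 0 of 18 not overlapping.

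Several neutrophil and acute phase genes were high in 2 of the 4 probiotic mice. Saa3, an acute phase apolipoprotein, had values of 5.91, 5.59, 5.59 and 5.47 in saline mice and 8.48, 8.41, 5.96 and 5.49 in probiotic mice. Probiotic mice 4 and 5 stood far above the rest, while probiotic mice 6 and 7 lay at or near the saline level. S100a8, a calprotectin subunit of neutrophils, had 4.90, 5.11, 4.56 and 4.20 in saline mice and 6.32, 6.47, 4.46 and 4.35 in probiotic mice, and Retnlg, a resistin-like protein of neutrophils, 4.05, 4.09, 3.68 and 3.53 and 5.40, 5.73, 3.99 and 4.38. The same mice were high for both. Lcn2, a siderophore-binding lipocalin of neutrophils and inflamed epithelium, was the exception: it had 6.43, 6.25, 6.30 and 6.60 in saline mice and 8.23, 8.01, 7.04 and 7.23 in probiotic mice, with no overlap, and differed by 1.23 ± 0.59 (adjusted p = 0.553). Of 14 neutrophil markers tested, 11 lay above 0 with a median of 0.26. S100a8 and Retnlg lay below the dim level in all saline mice. Cxcr2, the chemokine receptor of neutrophils, overlapped between groups, with values from 5.91 to 6.48 in saline mice and from 6.03 to 6.55 in probiotic mice. Acute inflammatory cytokines and chemokines had a median of −0.02 over 17 tested, with 0 not overlapping in either direction. Il1b, the cytokine interleukin 1 beta, was highest in the same mice, with 6.54, 6.60, 6.39 and 6.64 in saline mice and 8.30, 7.46, 6.93 and 6.43 in probiotic mice. Microbial sensing genes had a median of −0.0015 over 23, with 3 higher (4.1% of all genes) and 1 lower (2.98%) without overlap. Traf4, described above, is among these 3.

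Genes of the mitochondrion were lower in values as a group. Of 64 genes of the respiratory chain and ATP synthase tested, 58 lay below 0 (52.6% of all genes), 19 of these had an unadjusted p under 0.05, 4 did not overlap (2.98% of all genes) and the median was −0.12. Cox7a2, a subunit of cytochrome oxidase, had 10.15, 9.87, 10.08 and 10.21 in saline mice and 9.84, 9.72, 9.66 and 9.94 in probiotic mice, a difference of -0.29 ± 0.07 (adjusted p = 0.301). Saline mouse 4 was the lowest saline mouse and overlapped with probiotic mouse 7. Saline mouse 4 was also the lowest saline mouse over the whole list, whose mean was 9.38, 9.18, 9.27 and 9.33 in saline mice 2, 4, 6 and 7 and 9.21, 9.15, 9.09 and 9.23 in the probiotic mice. Without saline mouse 4, 21 of the 64 did not overlap (5.81% of all genes), and without probiotic mouse 7, 16 (5.69%). Without probiotic mouse 4 the number was 15 (4.71%), also when saline mouse 2 was left out with it (6.83%). For each other array left out alone the number was 4 to 6 (4.36% to 5.04% of all genes). The ATP synthase subunits Atp5e and Atp5k differed by -0.34 ± 0.11 and -0.31 ± 0.09.

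Mitochondrial ribosome and import genes had a median of −0.16 over 33 tested, 31 below 0 and 6 lower without overlap, against 52.6% and 2.98% of all genes. The list also holds Tmem256 and Hint2, which are not ribosomal or import genes. Both were described above for their small p, and both are among these 6. Tomm7, a subunit of the outer membrane import pore, differed by -0.34 ± 0.08 and the ribosomal protein Mrpl54 by -0.40 ± 0.15, both with overlap. Mrpl14 (-0.25 ± 0.08) and the import chaperone Timm13 (-0.24 ± 0.08) did not overlap. Without saline mouse 2, 27 of 33 lay below 0 with a median of −0.11, and 53 of 64 respiratory chain genes with a median of −0.09. Cytosolic ribosomal protein genes lay less low, at a median of −0.07 with 23 of 28 below 0 and 0 not overlapping. In colitis the respiratory chain median was −0.08 and the mitochondrial ribosome median −0.07, with 0 called in either.

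Promoters of nuclear genes for mitochondrial proteins often hold the site of nuclear respiratory factor 1 (NRF1), so the 250 bases before the RefSeq transcription starts (GRCm38.p6) were searched on both strands for GCGCA followed by any 1 base and GCGC. A match occurred for 10 of the 54 respiratory chain genes with a promoter in the table (18.5%), 3 of 28 mitochondrial ribosome and import genes (10.7%) and 4.23% of all 27025 genes. The promoter of Atp5k is shown because its gene had the most negative difference among the matching members; it lies at chr5:108434400-108434649 on the minus strand and is written 5′ to 3′ with the match in capitals.
Atp5k: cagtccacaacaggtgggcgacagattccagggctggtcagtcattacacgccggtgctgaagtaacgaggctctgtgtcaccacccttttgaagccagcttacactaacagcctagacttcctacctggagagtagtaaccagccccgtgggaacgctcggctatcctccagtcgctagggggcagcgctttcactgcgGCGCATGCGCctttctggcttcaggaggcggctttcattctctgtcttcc
Matching members differed in both directions, Atp5k by -0.31 and Atp5h, another ATP synthase subunit, by 0.16.

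The clock is a transcriptional loop in which Clock, Npas2 and Arntl activate, and Per, Cry and Nr1d proteins repress, over the day. Of 17 clock genes tested, 9 lay above 0 and 8 below, 2 had an unadjusted p under 0.05 upward (4.4% of all genes) and 4 downward (4.63%), and 1 was lower without overlap (2.98%), and the split of signs was close to that of all genes. Per1, a repressor that also responds directly to hormones and feeding, had 8.46, 7.86, 7.49 and 8.21 in saline mice and 8.55, 8.30, 8.39 and 8.68 in probiotic mice, a difference of 0.48 ± 0.18 (adjusted p = 0.43). Saline mice 4 and 6 were low and saline mouse 2 lay within the probiotic range. Nr1d2, a nuclear receptor of the loop, had 8.89, 8.77, 9.07 and 9.21 in saline mice and 8.69, 8.70, 8.63 and 8.74 in probiotic mice, a difference of -0.30 ± 0.11 (adjusted p = 0.425), with no overlap. Tef, an output factor that binds D-box sites, had 6.90, 6.59, 6.83 and 6.88 in saline mice and 6.38, 6.51, 6.67 and 6.53 in probiotic mice (difference -0.28 ± 0.10; adjusted p = 0.425). Saline mouse 4 was the lowest saline mouse and overlapped with probiotic mouse 6. Per3 differed by -0.28 ± 0.10. The other members under an unadjusted p of 0.05, named after their values were seen, were the D-box factor Dbp at -0.59 ± 0.24 and the activator Npas2 at 0.33 ± 0.14. Arntl, the partner of Clock and Npas2, differed by 0.18 ± 0.19 with overlap.

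Clock and its partners bind the E-box CACGTG. It occurred in the 250 bases before a RefSeq start in 5 of the 16 clock genes with a promoter in the table (31.2%), against 6.86% of all genes: Per1, Tef, Cry1, Bhlhe41 and Ciart. Promoters of Per1 and Tef are shown because these genes had opposite differences and share the motif, in capitals. That of Per1 lies at chr11:69098699-69098948 and 1 of the Tef promoters at chr15:81802423-81802672, both on the plus strand and written 5′ to 3′.
Per1: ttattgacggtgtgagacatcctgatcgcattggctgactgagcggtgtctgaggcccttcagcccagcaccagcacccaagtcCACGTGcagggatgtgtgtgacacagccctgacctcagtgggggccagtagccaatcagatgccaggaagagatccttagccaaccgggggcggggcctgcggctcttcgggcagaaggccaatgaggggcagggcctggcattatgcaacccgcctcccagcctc
Tef: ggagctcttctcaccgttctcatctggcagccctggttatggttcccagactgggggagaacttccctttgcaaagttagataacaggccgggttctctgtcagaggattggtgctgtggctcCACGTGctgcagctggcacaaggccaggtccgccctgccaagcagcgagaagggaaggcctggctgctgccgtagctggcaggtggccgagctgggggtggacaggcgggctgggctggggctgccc
The match in Per1 begins 166 bases before the transcription start and that in Tef 127 bases before it. Tef has another RefSeq start whose promoter, at chr15:81811164-81811413, also holds CACGTG, 138 bases before that start.

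Per1 is also a glucocorticoid target, and 9 of 15 steroid synthesis and glucocorticoid genes lay above 0 with a median of 0.06. Zbtb16, a zinc finger gene induced by glucocorticoids, had 7.96, 7.92, 7.96 and 8.19 in saline mice and 9.18, 9.20, 8.45 and 8.81 in probiotic mice, a difference of 0.90 ± 0.24 (adjusted p = 0.319). Probiotic mice 4 and 5 were highest and mouse 6 lowest of their group, still above every saline mouse. Among other glucocorticoid targets, Fkbp5 differed by 0.27 ± 0.19 and Sgk1 by 0.41 ± 0.37, and both overlapped, as did Tsc22d3. In colitis the Zbtb16 difference was -0.49 ± 0.24 (adjusted p = 0.299), and the test between the responses did not call it (adjusted p = 0.343).

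Colonocyte genes were lower in values as a group, with none called, and some were lowest in 2 of the probiotic mice. They had a median of −0.12 over 22 tested, 16 below 0 and 1, Aqp8, lower without overlap, against 52.6% and 2.98% of all genes. Without saline mouse 2 and probiotic mouse 4, 14 of the 22 lay below 0. Of the 22, 5 were then lower without overlap (6.83% of all genes) and 1 higher (8.76%). Aqp8, the water channel of colonocytes, differed by -0.31 ± 0.20. Slc9a3, the sodium-hydrogen exchanger of surface colonocytes, had 9.82, 8.24, 7.38 and 8.48 in saline mice and 8.95, 6.57, 6.63 and 8.62 in probiotic mice. Guca2a, the hormone guanylin, had 11.55, 11.40, 10.92 and 11.44 and 11.26, 10.47, 10.34 and 11.36. For both genes probiotic mice 5 and 6 were the lowest of all 8 mice, and probiotic mice 4 and 7 lay among the saline mice. Fabp2, a fatty acid binding protein, differed by -0.58 ± 0.19, and Krt20, a keratin of differentiated cells, by -0.24 ± 0.09. Goblet and mucus genes had a median of −0.03 with 7 of 20 above 0, and 1, Agr2, was lower without overlap (2.98% of all genes). Among 23 junction and adhesion genes, 8 lay above 0 (47.4% of all genes), with 2 higher (4.1%) and 1 lower (2.98%) without overlap. The barrier claudin Cldn1 had 6.58, 7.01, 6.75 and 7.05 in saline mice and 7.26, 7.12, 7.28 and 7.42 in probiotic mice, a difference of 0.42 ± 0.17 (adjusted p = 0.455), and the junction plaque protein Cgn differed by 0.28 ± 0.11. Cldn1 was higher in each probiotic mouse than in any saline mouse. Cldn23 and Cldn4 had negative differences of -0.48 ± 0.17 and -0.42 ± 0.18 with overlap, and the core tight junction genes Ocln and Tjp1 overlapped as well.

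Genes of cholesterol synthesis split the mice in a similar way. Fdps, which makes farnesyl diphosphate, had 9.13, 8.85, 9.23 and 8.29 in saline mice and 8.44, 7.69, 7.69 and 8.83 in probiotic mice, a difference of -0.71 ± 0.22 (adjusted p = 0.386). Sqle, the squalene epoxidase, had 9.76, 9.47, 9.76 and 9.08 against 9.06, 8.48, 8.61 and 9.64 (difference -0.57 ± 0.20; adjusted p = 0.424). In both genes probiotic mice 5 and 6 were lowest, saline mouse 7 was the lowest of its group and probiotic mouse 7 lay within the saline range. Over 15 genes of sterol and fatty acid synthesis, 13 lay below 0, 0 did not overlap and the median was −0.21. Msmo1 and Lss, further enzymes of the pathway, differed by -0.48 ± 0.17 and -0.63 ± 0.22, and Fasn, the fatty acid synthase, overlapped between groups. Medians nearer to 0 were found for short-chain fatty acid and lactate handling (−0.02, 5 of 13 above 0) and for fatty acid oxidation (−0.07, 5 of 17 above 0). Lower without overlap were 1 of the 13 and 3 of the 17, against 2.98% of all genes. Among aryl hydrocarbon receptor and xenobiotic genes 3 of 18 were lower without overlap (2.98% of all genes), among them the glutathione transferase Gstm1 at -0.34 ± 0.12 and the nuclear receptor Nr1i3 at -0.23 ± 0.09.

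**Figure D5:**
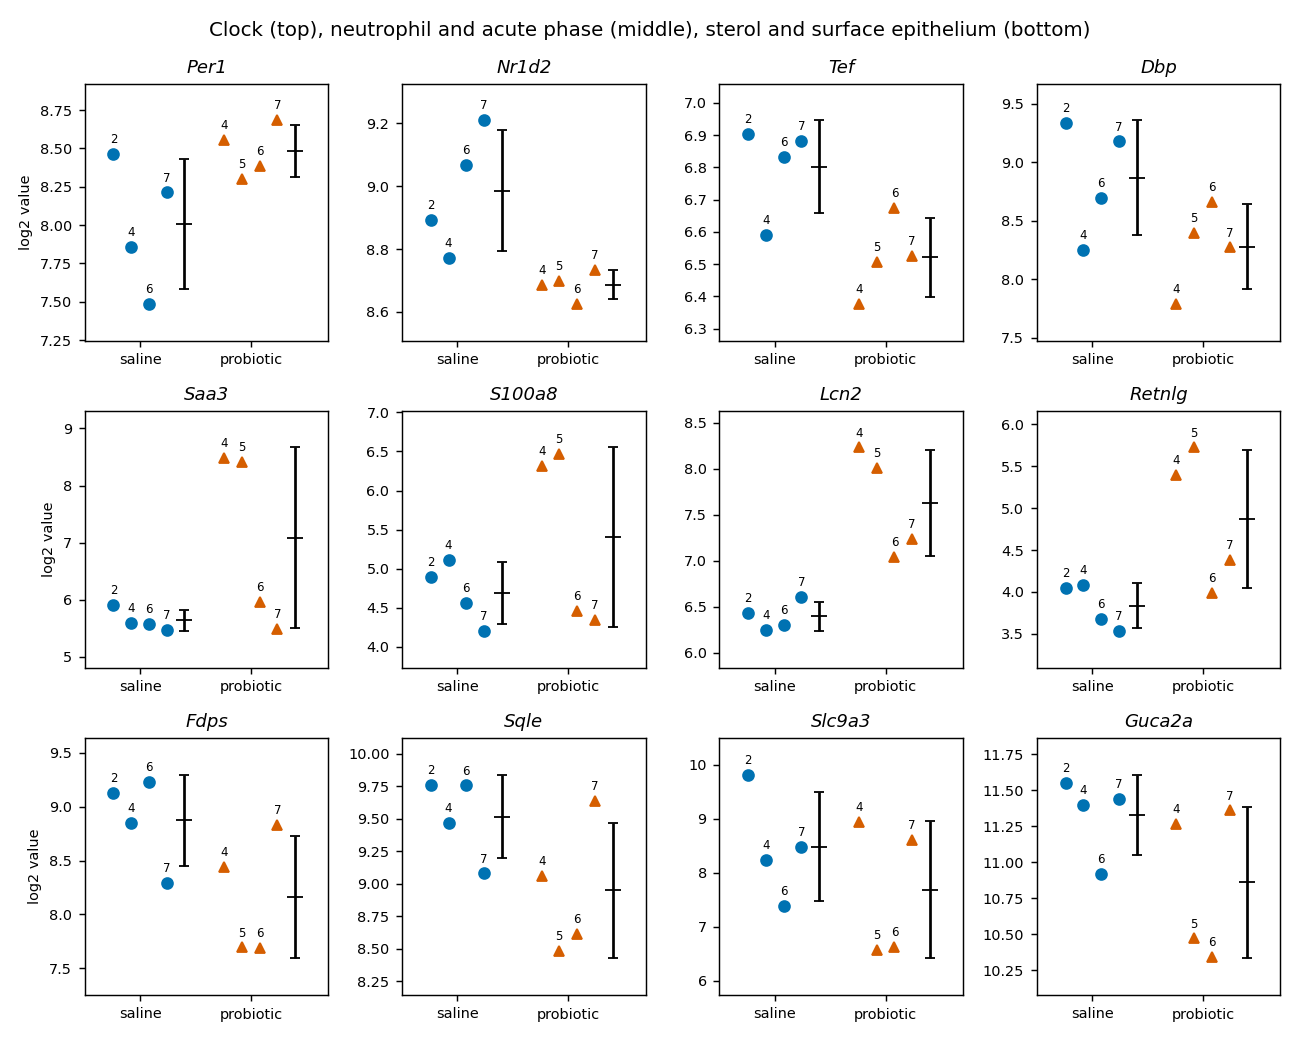
Log2 values (y axis) of 12 genes in each mouse, with the mouse number beside each point; circles are saline mice, triangles probiotic mice, and black bars give mean and SD of 4 mice. Probiotic mice 4 and 5 are high for Saa3, S100a8, Lcn2 and Retnlg in the middle row, and probiotic mice 5 and 6 are low for Fdps, Sqle, Slc9a3 and Guca2a in the bottom row.

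Markers of tissue attached to the gut wall also varied between mice. Adipocyte markers had a median of 0.32 over 12 tested, 10 above 0 and 1 higher without overlap, against 47.4% and 4.1% of all genes. Car3, a carbonic anhydrase of fat and muscle, had 10.43, 9.49, 10.15 and 10.38 in saline mice and 11.78, 10.54, 11.21 and 11.19 in probiotic mice, a difference of 1.07 ± 0.71 (adjusted p = 0.695). Probiotic mouse 4 was the highest for Car3, and also for the fat hormone Adipoq, whose values were 6.14, 5.80, 5.89 and 6.36 in saline mice and 7.25, 6.13, 6.37 and 6.93 in probiotic mice. The mean of the 12 adipocyte markers ranged from 7.40 to 7.81 in saline mice and from 7.59 to 8.35 in probiotic mice. Of 11 mesothelial markers, a list added after values were seen, 10 lay above 0 with a median of 0.25, and Gpm6a and Lrrn4cl belong to it. The part of attached fat and serosa in the stromal values was not tested. Without saline mouse 2 and probiotic mouse 4, the latter the highest in fat markers, list medians were 0.37 for lymphatic, 0.13 for matrix, 0.20 for macrophage and 0.25 for MHC class II genes, and −0.28 for sterol and −0.09 for colonocyte genes.

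The probiotic differences of healthy and colitis mice were then set against each other gene by gene. The test of the difference called 0 of 16739 genes (0%) with limma, and 1446 had an unadjusted p under 0.05 (8.64%). Without colitis probiotic mouse 8 it called 45, 30 with the higher difference in colitis and 15 with the higher in healthy mice, while 0 were called without any other of these 16 arrays. The smallest adjusted p, 0.185, belonged to Prdm1 and Aif1. Prdm1, the repressor of plasma cells and of other differentiated cells, had 6.84, 6.78, 6.94 and 7.08 in healthy saline mice and 6.83, 6.71, 6.74 and 6.75 in healthy probiotic mice, a difference of -0.15 ± 0.13, against 0.90 ± 0.13 in colitis. Aif1, a calcium-binding protein of macrophages, differed by -0.16 ± 0.12 in healthy and 0.81 ± 0.12 in colitis mice. In healthy mice the groups overlapped for both. Rflnb, an actin-binding regulator, lay the other way, at 0.23 ± 0.07 in healthy mice, without overlap, and -0.27 ± 0.07 in colitis (adjusted p of the difference 0.193). These are selected from the smallest p of the test and were named after their values were seen.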

How the data were processed

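Total RNA of the middle colon was hybridised to 1 Affymetrix array per mouse, 20 arrays in all. The values are the authors' deposited log2 expression values, summarised with RMA per the submitters' processing notes; not given in the sources used here are the software version and the probe annotation, and RMA compresses differences of dim probe sets. The number of arrays limits the precision. Of 41801 probe sets in the table, 29195 had values, and 22360 of these had 1 gene symbol, 1013 several and 5822 none. The probe set of highest mean was kept per gene (21423 symbols), and genes above the 25th percentile (log2 5.30) on at least 4 of 20 arrays were tested (16739). Group means of all 5 groups were fitted with limma 3.58.1 (R 4.3.3) and p-values adjusted by Benjamini-Hochberg over all genes tested; the fit was tested on simulated data. Labelled animal numbers 4, 6 and 7 recur in both groups, but same-numbered mice did not deviate together (correlations of −0.08, 0.08 and 0.05).

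Named were the 12 genes of smallest p without overlap in each direction, immunoglobulin and T cell receptor segments, predicted genes, olfactory receptors and noncoding series left out, the genes called in the fit of the 8 arrays alone, up to 4 members of smallest p per list, the 10 genes of largest spread and tissue markers. Other names were chosen after their values were seen. The comparison and the 38 gene lists were chosen with earlier results of these data known, and 2 lists, mesothelial markers and long nuclear transcripts, were added after values were seen. Promoter sequences are from RefSeq (GRCm38.p6). Alternatives were filters, the choice of probe set, array weights, other scaling, the samples fitted, a block for animal number, and leaving out each array.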

Additional observations from a re-analysis of the deposited data

Results flagged for a closer look

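Within groups of 4 mice, a single mouse stood apart from the other 3 in 17 of 182 groups checked (named genes and list means). Of the 17, 9 concerned saline mouse 2. The limit used would flag about 1 in 20 groups by chance. That rate does not apply to the named genes, which were chosen by p, overlap or spread in these same values, so the 17 cannot be read as an excess. Of the 17, 8 come from the genes taken for their large spread (Clca4b, Zfp942, Ly6m, Zfp975 and Dhrs9) and from the long nuclear transcripts, a list added after its values were seen. Saline mouse 2 was low for Serping1 (9.86), Vim (10.46), Zfp942 (5.50) and Zfp975 (4.75), and for the mean of the endothelial markers (7.00) and of the long nuclear transcripts (8.50). It was high for Clca4b (8.60), a chloride channel regulator gene, Ly6m (10.21) and the retinol dehydrogenase gene Dhrs9 (8.48). In Clca4b the other 3 saline mice lay between 4.61 and 5.05. Probiotic mouse 4 was low for Zfp942 (6.61) and for the mean of the long nuclear transcripts (8.89), and high for the mean of stem cell and Wnt genes (8.20). The remaining cases were Zfp46 low in probiotic mouse 5 (8.21), Pkd1 high in probiotic mouse 6 (8.60), Xrcc6 low in saline mouse 6 (7.02), Anapc13 low in saline mouse 4 (11.46), and the mean of mast cell and eosinophil genes low in saline mouse 6 (5.50).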

How the results depend on the processing

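The count of 0 called genes between probiotic and saline became 19, all higher, in the fit of the 8 healthy arrays alone, and 5 (3 higher, 2 lower) at an adjusted p under 0.25; it was 0 under every other alternative tried, each array left out included. With the animal number as a replicate block it was 0, with 1089 genes at an unadjusted p under 0.05. The count of 0 for the difference between colitis and healthy responses became 5 with array weights and 1 with the replicate block, and ranged from 0 to 45 over leaving out each array, 45 being without colitis probiotic mouse 8. The cause was not tested. Of the list medians, 702 alternative values moved by less than the spread and 17 by more, among them the endothelial median, 0.17 with the replicate block, and the matrix median, 0.04 with it. Of the named genes' differences, none reversed direction where it was called, and 18 passed the threshold only in the fit of the 8 arrays. Genes that did not pass the filter for dim genes have no call.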
